A study of Homo sapiens with 6 samples.

Results

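Messenger RNAs for 10 chaperones of the endoplasmic reticulum (ER) were measured in forebrain cells derived from H9, a human embryonic stem cell line. The genes were HSPA5, HYOU1, SDF2L1, HSP90B1, CALR, CANX, P4HB, PDIA3, PDIA4 and PDIA6. They were taken by symbol from a gene table of 59609 rows, and all 10 were found and passed the expression filter. The series compared cytoplasmic RNA, nuclear RNA and total-cell RNA, with 2 replicates each and 6 libraries in all. All 6 came from wild-type, untreated cells at day 26, which the labels call forebrain neuron progenitor cells in one field and forebrain neurons in another. H9 is a single line, and the labels do not say whether replicates were separate cultures, so each p-value reflects library-to-library spread that may be technical. Ribosomal RNA was depleted from the RNA, and fractions of bulk cells were sequenced, so fewer cells of a type and less RNA per cell cannot be told apart.

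Proteins that are secreted or placed in membranes fold inside the ER. The Hsp70 protein BiP (HSPA5) and the Hsp90 protein GRP94 (HSP90B1) hold unfolded chains, the lectins calreticulin and calnexin bind sugar-bearing chains, and protein disulfide isomerases form and exchange disulfide bonds. When unfolded protein builds up, the unfolded protein response raises transcription of many of these genes, and their mRNAs are translated by ribosomes bound to the ER, whose membrane is continuous with the outer nuclear envelope.

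The ends of the coding sequences are shown because they carry a feature of most of these proteins that the choice by symbol did not use. Soluble ER proteins end in a short retrieval signal of the KDEL type, which returns escaped molecules from the Golgi. Calnexin is a membrane protein and is held by a cytosolic tail instead. The last bases of one annotated transcript per gene (GENCODE v29) follow for 8 of the genes, 5′ to 3′, with the stop codon and the codons of the signal in capitals.
HSPA5: gaggatacagcagaaAAAGATGAGTTGTAG
HSP90B1: gaatctacagctgaaAAAGATGAATTGTAA
HYOU1: aagcggcctttgaagAACGACGAACTATAA
SDF2L1: gagccctctgcaggtCACGATGAACTCTGA
P4HB: gatcagaaagctgtgAAAGATGAACTGTAA
PDIA3: aagaagaagaaggcaCAGGAGGATCTCTAA
PDIA4: aaactgagcaggaccAAGGAAGAGCTTTGA
PDIA6: cttgatgacttagggAAAGATGAGTTGTGA

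The promoters are shown because the unfolded protein response is known to act on such genes through the ER stress response element. The element was searched on both strands as CCAAT, 9 free bases and CCACG, named ERSE, in windows reaching upstream and a short way past annotated RefSeq starts (GRCh38.p14). PDIA3 had no window. ERSE was found for 5 of the other 9 genes, HSPA5, HSP90B1, CALR, CANX and PDIA6. Over all protein-coding genes with a window it was found for 21 of 15126 (0.139%), these 5 included. The element was already known from genes of this kind, so a higher share among the members is no independent result. The related element ATTGG, 1 free base and CCACG, named ERSE-II, was found for HYOU1 and SDF2L1. Over all genes it was found for 15 of 15126 (0.0992%), HYOU1 and SDF2L1 included. ERSE-II overlapped no ERSE in these windows. In the other lists described below, ERO1B, CRELD2 and XBP1 held ERSE and HERPUD1 held ERSE-II. P4HB and PDIA4 held neither sequence in their windows, which says only that these letters are not there. A match is a description and was not tested for binding. Each site follows on its own strand, with the fixed letters in capitals.
HSPA5: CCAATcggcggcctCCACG
HSP90B1, distal site: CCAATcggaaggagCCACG
HSP90B1, proximal site: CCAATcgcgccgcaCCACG
CALR: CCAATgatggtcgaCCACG
CANX: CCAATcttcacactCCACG
PDIA6: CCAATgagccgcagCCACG
HYOU1, both sites: ATTGGaCCACG
SDF2L1: ATTGGtCCACG

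The HSPA5 and HSP90B1 windows are given whole, since these genes code for the main Hsp70 and Hsp90 of the ER and lay lowest in the comparison of cytoplasm with nucleus. The HSPA5 window is chr9:125241294-125241593 on the minus strand and that of HSP90B1 is chr12:103930160-103930459 on the plus strand, both of GRCh38.p14. Capitals mark ERSE on either strand. In HSPA5 the site spans positions -66 to -48 relative to the start. In HSP90B1 the sites span positions -194 to -176 and, on the opposite strand, -89 to -71.
HSPA5: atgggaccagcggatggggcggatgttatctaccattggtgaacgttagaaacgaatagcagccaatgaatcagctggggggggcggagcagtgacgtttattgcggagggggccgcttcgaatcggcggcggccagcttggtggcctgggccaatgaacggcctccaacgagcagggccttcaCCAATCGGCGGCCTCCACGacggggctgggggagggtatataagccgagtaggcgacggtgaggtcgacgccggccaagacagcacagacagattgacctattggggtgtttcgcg
HSP90B1: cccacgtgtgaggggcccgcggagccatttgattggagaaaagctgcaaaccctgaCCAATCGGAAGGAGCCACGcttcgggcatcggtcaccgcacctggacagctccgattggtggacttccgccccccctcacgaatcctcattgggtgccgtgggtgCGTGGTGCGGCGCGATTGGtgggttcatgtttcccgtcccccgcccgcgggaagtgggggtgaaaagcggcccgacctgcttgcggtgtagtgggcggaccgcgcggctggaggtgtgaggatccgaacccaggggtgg

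Levels were deposited as FPKM, fragment counts scaled to exon length and library depth, so levels of different genes can be set side by side per length. Multiplied by exon length from GENCODE v29, low FPKM values fell on steps of 1 fragment (43.0% to 55.1% of values per library within 0.02), many others on fractions, so the depth below is approximate. The steps correspond to 38.7 and 45.7 M fragments (M, mega) behind the scaling of the cytoplasmic, 120.3 and 111.8 M of the nuclear and 34.9 and 37.4 M of the total-cell libraries. Of these, 60.1% and 58.8% lay on exons in the cytoplasmic, 22.7% and 24.5% in the nuclear and 58.5% and 66.3% in the total-cell libraries. On the same reading between 140 and 27261 fragments stood behind each value of the 10 mRNAs, SDF2L1 having the fewest. All 10 forebrain progenitor markers and all 6 neuron markers had a mean of at least 1 FPKM, against 0 of 7 glial and 0 of 4 hindbrain or spinal cord markers. Of the other lists, 2 of 4 pluripotent, 3 of 5 mesenchymal or vascular and 1 of 3 choroid plexus markers reached that mean. The pluripotent ones were LIN28A and DPPA4, while POU5F1 had at most 0.0759 FPKM and NANOG at most 0.0103 FPKM in any library. COL1A1, COL3A1 and ACTA2 reached it, while the vascular markers PECAM1 and CDH5 had at most 0.0510 and 0.0656 FPKM. TTR, a secreted carrier protein and choroid plexus marker, averaged 56.5 FPKM in cytoplasmic RNA, 15.5 in the nucleus and 23.6 in total RNA, with KCNJ13 at 0.149, 0.0746 and 0.845 FPKM. The total-cell libraries stood apart from both fractions. MALAT1, a nuclear noncoding RNA, averaged 34.5 FPKM in cytoplasmic RNA and 70.4 FPKM in nuclear RNA, against 753 FPKM in total RNA. The nuclear RNA NEAT1 was low, at 0.532, 0.408 and 1.87 FPKM, and was not higher in the nucleus than in the cytoplasm, and neither was MEG3, at 0.0327, 0.0196 and 0.0635 FPKM. The fourth of that list, KCNQ1OT1, had 0.0210, 0.0444 and 1.12 FPKM. The summed neuron markers were 238 to 264 FPKM in cytoplasmic RNA, 78.8 to 92.4 in the nucleus and 492 to 557 in total RNA, with TUBB3 alone among them higher in the cytoplasm (73.6 FPKM) than in total RNA (63.4 FPKM). The summed progenitor markers were 778 to 834 FPKM in cytoplasmic RNA, 360 to 389 in the nucleus and 446 to 473 in total RNA.

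The Hsp70 system comes first. HSPA5 (chromosome 9, 125234853 to 125241330, minus strand, hg38) had 48.8 and 47.1 FPKM in cytoplasmic, 40.7 and 49.9 FPKM in nuclear and 54.4 and 66.4 FPKM in total-cell libraries. HYOU1 (chromosome 11, 119044189 to 119057202) encodes a large Hsp70 relative that exchanges nucleotide on BiP, and had 20.1 and 18.4 FPKM in cytoplasmic RNA, 16.2 and 18.0 FPKM in nuclear RNA and 21.8 and 24.2 FPKM in total RNA. For both genes the values of cytoplasm and nucleus lay close together, overlapping for HSPA5, and the total-cell values were above them. SDF2L1 (chromosome 22, 21642261 to 21644298), a small partner of the J-domain protein DNAJB11, had 10.8 and 11.5 FPKM in cytoplasmic RNA, 3.38 and 3.18 FPKM in nuclear RNA and 3.86 and 3.40 FPKM in total RNA. Its cytoplasmic values stood alone, and nuclear and total-cell values lay next to each other without overlap.

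HSP90B1 (chromosome 12, 103930107 to 103953645) had 26.6 and 24.5 FPKM in cytoplasmic RNA, 31.2 and 39.3 FPKM in nuclear RNA and 66.6 and 83.5 FPKM in total RNA. The 3 groups did not overlap, and HSP90B1 was the one member with its lowest level in the cytoplasm in every library. Its 2 listed pseudogenes were at or under 0.682% of its level.

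The lectins include a soluble and a membrane-bound protein. CALR (chromosome 19, 12938578 to 12944489), which encodes soluble calreticulin, had 173 and 156 FPKM in cytoplasmic RNA, 72.5 and 87.0 FPKM in nuclear RNA and 88.3 and 101 FPKM in total RNA. CANX (chromosome 5, 179678628 to 179730925), which encodes its membrane-bound relative calnexin, had 42.1 and 38.1 FPKM in cytoplasmic RNA, 31.2 and 39.1 FPKM in nuclear RNA and 56.7 and 68.8 FPKM in total RNA. CALR was highest in the cytoplasm, whereas CANX overlapped between cytoplasm and nucleus and was highest in total RNA.

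Disulfide isomerases form the last class. P4HB (chromosome 17, 81843159 to 81860694), the founding isomerase and a subunit of prolyl 4-hydroxylase, had 35.7 and 33.6 FPKM in cytoplasmic RNA, 15.6 and 18.0 FPKM in nuclear RNA and 22.1 and 25.4 FPKM in total RNA. PDIA6 (chromosome 2, 10783391 to 10837977), an isomerase found with BiP, had 25.3 and 23.7 FPKM in cytoplasmic RNA, 13.0 and 15.9 FPKM in nuclear RNA and 16.6 and 21.0 FPKM in total RNA. Both had cytoplasmic values above all nuclear and total-cell values. PDIA4 (chromosome 7, 149003062 to 149028641), an isomerase with an additional thioredoxin-like domain, had 29.9 and 27.8 FPKM in cytoplasmic RNA, 18.5 and 22.4 FPKM in nuclear RNA and 20.3 and 22.2 FPKM in total RNA. PDIA3 (chromosome 15, 43746392 to 43773279), the partner of calnexin and calreticulin, had 22.5 and 20.9 FPKM in cytoplasmic RNA, 13.1 and 16.2 FPKM in nuclear RNA and 19.7 and 24.02 FPKM in total RNA. PDIA4 therefore overlapped between nucleus and total RNA and PDIA3 between cytoplasm and total RNA.

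**Figure D1:**
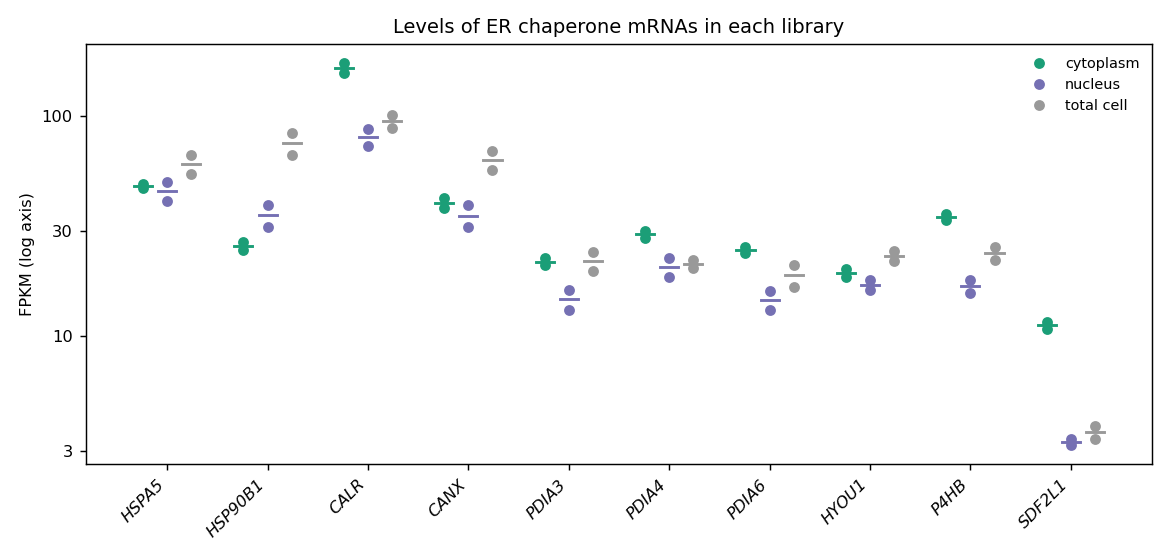
FPKM of each ER chaperone mRNA (log axis) in the cytoplasmic, nuclear and total-cell libraries. Points are libraries and bars the mean of 2. CALR is highest in every fraction, SDF2L1 lowest, and HSP90B1 averages 25.5 FPKM in the cytoplasm, 35.3 in the nucleus and 75.1 in total RNA.

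Ordered by level, CALR was first and SDF2L1 last in all 3 fractions. In the cytoplasm the order was CALR at 165 ± 12.4 FPKM (SD, n = 2), HSPA5 at 48.0 ± 1.22, CANX at 40.1 ± 2.81, P4HB at 34.7 ± 1.4999, PDIA4 at 28.9 ± 1.44, HSP90B1 at 25.5 ± 1.44, PDIA6 at 24.5 ± 1.12, PDIA3 at 21.7 ± 1.14, HYOU1 at 19.3 ± 1.18 and SDF2L1 at 11.1 ± 0.554. Of these neighbours HSP90B1 and PDIA6 overlapped in their replicates. In the nucleus HSP90B1 took the third place, at 35.3 ± 5.73 FPKM, overlapping CANX at 35.1 ± 5.61, and HYOU1, P4HB, PDIA3 and PDIA6 overlapped in a chain from 17.1 ± 1.29 to 14.4 ± 2.01 FPKM. In total RNA HSP90B1 was second at 75.1 ± 12.01 FPKM and overlapped CANX at 62.8 ± 8.53, which overlapped HSPA5 at 60.4 ± 8.52. The other members but SDF2L1 then overlapped in a chain from P4HB at 23.7 ± 2.33 to PDIA6 at 18.8 ± 3.09 FPKM. Among the 10246 tested mRNAs, members other than SDF2L1 lay above at least 89.9% in the cytoplasm, 96.6% in the nucleus and 91.9% in total RNA. SDF2L1 lay above 82.0%, 75.9% and 38.9% in the same order, so in total RNA it was below the median of 4.59 FPKM.

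The comparison of cytoplasm with nucleus set the level of each message within cytoplasmic RNA beside its level within nuclear RNA. FPKM is scaled within each library, so these values do not give the split of a message's molecules between the compartments. SDF2L1, CALR, P4HB, PDIA6, PDIA3 and PDIA4 were higher in the cytoplasm as deposited, HSP90B1 was lower, and HSPA5, HYOU1 and CANX were not called. As counts, 6 of 10 were called higher in the cytoplasm, against a background of 90.1% of 10246 tested mRNAs, and 1 was called lower, against 1.26% (limma, Benjamini-Hochberg adjusted p below 0.05). The members' median log2 fold change of FPKM + 1 was 0.51, that of all tested mRNAs 0.82, and 7 of 10 members lay below that second median. Scaled to a common library median, 1 member was higher and 9 were lower, against 40.0% and 33.4% of all tested. Direction as deposited and direction after scaling must therefore be kept apart. The place relative to the median mRNA also depended on scaling for CALR and P4HB. As deposited they lay above the median of all tested mRNAs, by 0.22 and 0.19, and after scaling below it. The 1 FPKM was added after scaling and understates fold changes of low mRNAs. Its part in the scaled calls was not tested. The nuclear libraries had the smaller share of fragments on exons, and its part in the shift of the median was not tested. Without overlap of replicates, 7 of 10 members were above nuclear values in the cytoplasm (93.7% of all tested) and 1 was below (2.40%). A fit of the 4 compared libraries alone gave the same call for every member.

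SDF2L1 had the largest difference, 11.1 ± 0.554 FPKM in cytoplasmic RNA and 3.28 ± 0.146 FPKM in nuclear RNA, a 3.40-fold ratio of means, or 1.505 ± 0.12 as limma's log2 estimate with its SE (limma adjusted p = 5.1e-33). It was also the one member above the median mRNA after scaling (0.50, limma adjusted p = 0.00168). CALR followed at 1.04 ± 0.13 (limma adjusted p = 2.0e-14) and P4HB at 1.009 ± 0.13 (limma adjusted p = 2.2e-14), each a 2.07-fold ratio of means. After scaling both stood slightly below, at -0.14 (limma adjusted p = 0.0443 for CALR and 0.0300 for P4HB). PDIA6 rose by 0.73, PDIA3 by 0.54 and PDIA4 by 0.48 on the log2 scale, and these became -0.41, -0.59 and -0.67 after scaling. The moderated fit took each mRNA's spread wholly from the intensity trend. With the mRNAs' own spread CALR, P4HB, PDIA4, PDIA6 and SDF2L1 were still called higher (background 83.1%), PDIA3 was not (limma without moderation, adjusted p = 0.0549), and 0 members were called lower (background 0.703%).

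The members with the least cytoplasmic excess were HSP90B1, HSPA5, HYOU1 and CANX. HSP90B1 averaged 25.5 ± 1.44 FPKM in cytoplasmic RNA and 35.3 ± 5.73 FPKM in nuclear RNA, which gave -0.44 ± 0.13 on the log2 scale (limma adjusted p = 0.00094) and -1.60 after scaling. The call was lost with its own spread (adjusted p = 0.116) and without nucleus replicate 2 (limma, -0.28, adjusted p = 0.0983). HSPA5 stood at 0.09 ± 0.13 on the log2 scale (limma adjusted p = 0.529), HYOU1 at 0.17 ± 0.13 (limma adjusted p = 0.207) and CANX at 0.19 ± 0.13 (limma adjusted p = 0.158), none of them called. CANX was called higher without nucleus replicate 2 (limma, 0.35, adjusted p = 0.0395). After scaling the 3 stood at -1.09, -0.97 and -0.98, all called lower, so relative to the median mRNA they lay on the nuclear side.

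**Figure D2:**
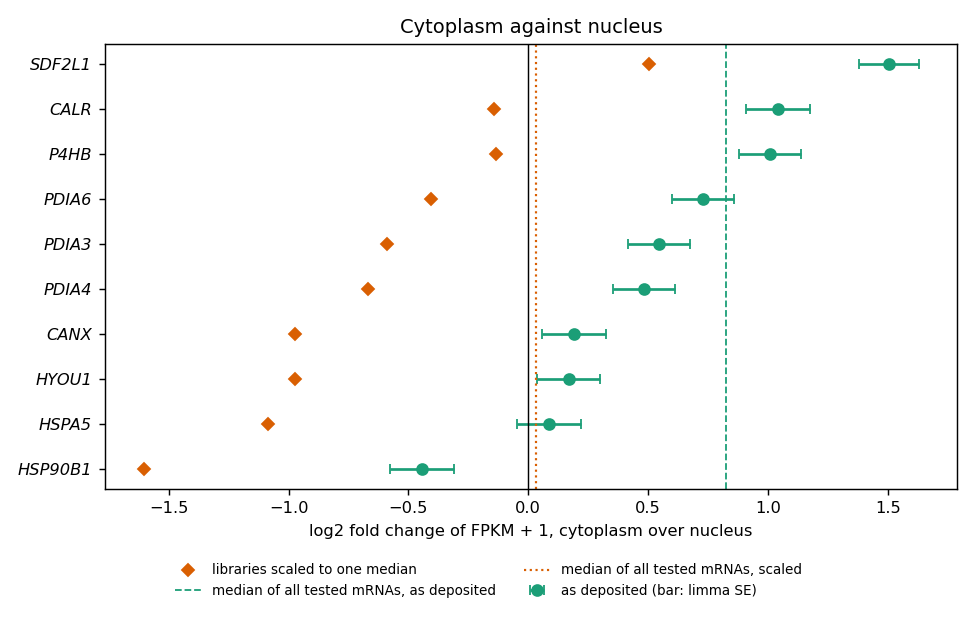
Log2 fold change of FPKM + 1, cytoplasm over nucleus, for each ER chaperone mRNA as deposited (circles, bars are the limma SE) and after scaling the libraries to one median (diamonds), with the median of all tested mRNAs as lines. As deposited, 9 of 10 lie above 0 and 7 of 10 left of the dashed median line at 0.82; after scaling, SDF2L1 alone lies above 0.

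Ratios between members within a library do not depend on library scaling, so the make-up of the group was compared across fractions. CALR made up 39.4% ± 0.729 of the summed FPKM of the 10 mRNAs in the cytoplasm, 28.3% ± 0.155 in the nucleus and 23.4% ± 0.604 in total RNA (SD, n = 2). HSP90B1 went the other way, with 6.10% ± 0.000405 in the cytoplasm, 12.5% ± 0.350 in the nucleus and 18.5% ± 0.717 in total RNA. The ratio of CALR to HSP90B1 was thus 6.53 and 6.36 in the cytoplasmic, 2.32 and 2.21 in the nuclear and 1.33 and 1.21 in the total-cell libraries. P4HB held 8.29% ± 0.110, 5.96% ± 0.194 and 5.87% ± 0.139, and SDF2L1 2.67% ± 0.284, 1.18% ± 0.211 and 0.907% ± 0.190, in cytoplasm, nucleus and total RNA. Like HSP90B1, HSPA5, CANX and HYOU1 had their smallest share in the cytoplasm. HSPA5 held 11.5% ± 0.357 there, against 16.1% ± 0.140 in the nucleus and 14.9% ± 0.291 in total RNA. In the same order of cytoplasm, nucleus and total RNA, CANX held 9.57% ± 0.130, 12.4% ± 0.313 and 15.5% ± 0.224. HYOU1 held 4.61% ± 0.022, 6.07% ± 0.361 and 5.70% ± 0.269. PDIA3 kept nearly one share, 5.18% ± 0.0204 in the cytoplasm, 5.18% ± 0.0729 in the nucleus and 5.39% ± 0.0942 in total RNA. These shares are given with their spread and were not tested.

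**Figure D3:**
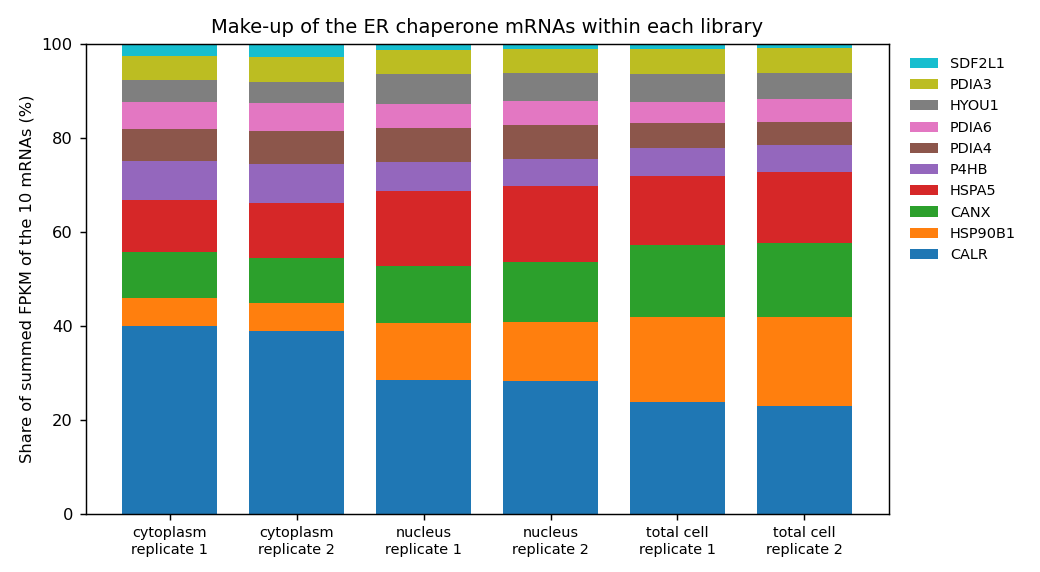
Share (%) of each ER chaperone mRNA in the summed FPKM of the 10, stacked for each of the 6 libraries. Replicates look alike, the CALR share is 39.4% on average in the cytoplasm and 23.4% in total RNA, and the HSP90B1 share 6.10% and 18.5%.

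Each fraction was also set against total-cell RNA. These 2 comparisons share the total-cell libraries with each other and each fraction with the comparison above, so their values are given side by side and are not independent. In the cytoplasm against total RNA, 5 of 10 members were called higher (background 30.3%) and 3 lower (background 43.9%); after scaling 6 were higher (background 47.9%) and 2 lower (background 37.0%). Replicates lay wholly above total RNA for 5 members (36.8% of all tested) and wholly below for 4 (49.8%). The higher ones were SDF2L1 (log2 fold change 1.39 ± 0.12), CALR (0.79 ± 0.13), P4HB (0.53 ± 0.13), PDIA4 (0.42 ± 0.13) and PDIA6 (0.37 ± 0.13), and the lower ones HSP90B1 (-1.51 ± 0.13), CANX (-0.63 ± 0.13) and HSPA5 (-0.32 ± 0.13, limma adjusted p = 0.0222). HYOU1 (-0.24, limma adjusted p = 0.0776) and PDIA3 (-0.01, limma adjusted p = 0.968) were not called. With the mRNAs' own spread SDF2L1, CALR and P4HB were called higher (background 24.3%) and HSP90B1 lower (background 35.4%). HSPA5 was at -0.02 after scaling (limma adjusted p = 0.719), and its call was also lost with no filter (limma adjusted p = 0.0851) or with all rows of the table (limma adjusted p = 0.0551), as was that of PDIA6 with no filter (limma adjusted p = 0.0515). HYOU1 was called lower when limma was run without the trend (adjusted p = 0.0440). PDIA4 was not called without cytoplasm replicate 1, PDIA6 not without cytoplasm replicate 1 or total-cell replicate 1, and HSPA5 not without either cytoplasm replicate or without total-cell replicate 2.

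In the nucleus against total RNA, 0 of 10 were called higher (background 0.654%; 0 at an unadjusted p below 0.05, and 0 with own spread) and 7 lower (background 94.7%). HSP90B1 stood at -1.07 ± 0.13, CANX at -0.82 ± 0.13, PDIA3 at -0.55 ± 0.13, P4HB at -0.48 ± 0.13, HYOU1 at -0.41 ± 0.13, HSPA5 at -0.41 ± 0.13 and PDIA6 at -0.36 ± 0.13, whereas CALR (-0.25, limma adjusted p = 0.0682), SDF2L1 (-0.11, limma adjusted p = 0.373) and PDIA4 (-0.06, limma adjusted p = 0.662) were not called. The median of all tested mRNAs was -1.05, and 9 of 10 members lay above it, HSP90B1 being the exception. After scaling 10 of 10 were higher in the nucleus, against 40.3% of all tested, and 0 lower, against 37.8%. HSP90B1 thereby crossed the median of all tested mRNAs, standing at 0.40 where that median was 0.014. The 1 FPKM added after scaling understates fold changes of low mRNAs, and its part in these counts was not tested. Replicates lay wholly below total RNA for 9 of 10 (96.7% of all tested), PDIA4 being the exception. With own spread 5 of 10 were lower (background 92.6%), HSPA5 and PDIA6 being lost, and 0 higher (background 0.576%). As deposited, HSPA5 and PDIA6 were not called without nucleus replicate 1 or without total-cell replicate 2, and CALR was called lower without nucleus replicate 2, without total-cell replicate 1 or without the trend.

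Both total-cell libraries exceeded all 4 fraction libraries for HSPA5, HSP90B1, CANX and HYOU1, 4 of 10 members, against 49.6% of all tested mRNAs, a share near the background. MALAT1 and 5 of the 6 neuron markers likewise exceeded both fractions in total RNA, whereas TUBB3 and the summed progenitor markers were highest in the cytoplasm. The part of these in the members' values was not tested.

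Exon length went with the difference between cytoplasm and nucleus. Over the 10019 tested mRNAs with a length, Spearman's rho between exon length and the log2 fold change was -0.505, and over the 10 members it was -0.527. These are descriptions over genes that share the 4 libraries, and length also enters the FPKM. SDF2L1 was the shortest member at 1099 bases and had the largest cytoplasmic excess, and HYOU1 was the longest at 7694 bases. Exon length did not order them all: P4HB at 5303 bases had 1.009 and HSPA5 at 3908 bases 0.09. These lengths join all annotated exons of a gene, and a single transcript can be shorter. The annotated transcript taken for P4HB had 2603 bases, that for HSP90B1 2858 and that for HSPA5 3908. By these transcripts P4HB was shorter than HSPA5, so this pair goes by the length measure. Transcript length was not set against the fold changes, and the classes that follow use the joined exons too.

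Tested mRNAs were cut into 10 classes of nearly equal size by exon length, and 8 of 10 members lay below the median of their class. HSP90B1 (4695 bases) had 0.5% of all tested mRNAs below it and 0% of the 1002 in its class. HSPA5 had 5.7% of all tested below it and 1.6% of its class, and PDIA4 had 24.4% and 11.5%. SDF2L1 stood at 85.3% among all tested mRNAs but at 56.5% in its class, and CALR at 64.3% and 38.6%. P4HB (62.2% and 67.0%), CANX (9.0% and 8.2%) and HYOU1 (8.2% and 12.3%) changed little, and PDIA3 (29% and 19.5%) and PDIA6 (42.5% and 32.8%) moved down.

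**Figure D4:**
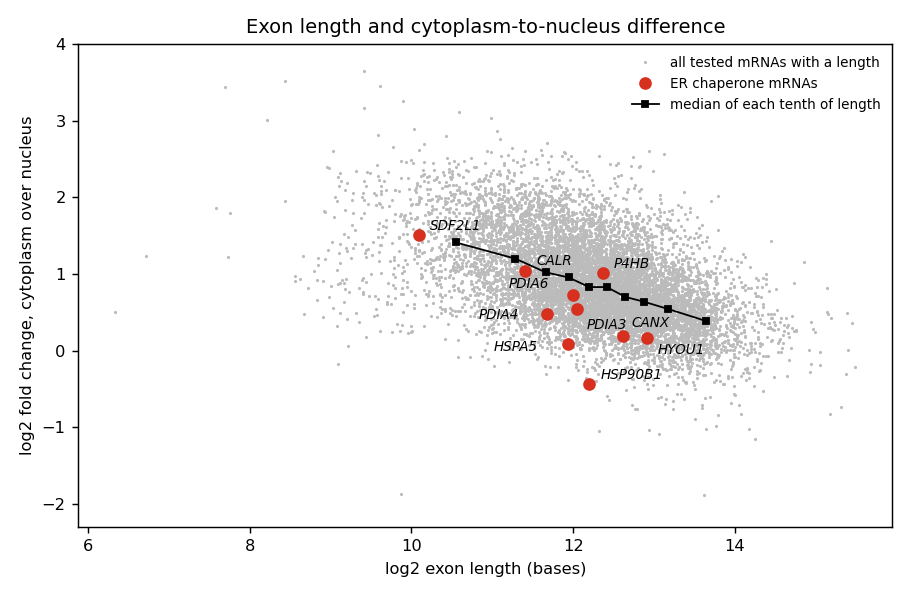
Log2 fold change, cytoplasm over nucleus, against log2 exon length in bases. Grey points are tested mRNAs with a length, red points the ER chaperone mRNAs and the line joins the medians of 10 length classes, which run from 1.41 for the shortest to 0.39 for the longest; HSP90B1 lies lowest of the members at -0.44.

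Other genes of ER folding were set beside the members from lists made by function. The counts that follow stand beside the same background, 90.1% of all tested mRNAs called higher and 1.26% lower, and a share near it is no result about a list. Of 40 tested ER folding factors that are not members, 31 were higher in the cytoplasm, 0 lower and 9 not called, with a median of 0.74. PPIB, the ER cyclophilin, had 93.1 ± 6.25 FPKM in cytoplasmic RNA and 29.04 ± 2.08 FPKM in nuclear RNA (1.65 ± 0.13 on the log2 scale). MANF, a small secreted protein released under ER stress, had 1.89 ± 0.13. PRKCSH and GANAB, the subunits of glucosidase II, had 0.57 ± 0.13 (-0.57 after scaling) and 0.21 ± 0.13 (-0.93 after scaling), GANAB not being called (limma adjusted p = 0.114). This list ran from -0.22 to 1.89, and the members from -0.44 to 1.505.

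Among 30 mRNAs for protein translocation and glycosylation at the ER, 29 were higher in the cytoplasm (background 90.1%). None was called lower (background 1.26%) and 1 was not called, with a median of 1.42. OST4 (2.32 ± 0.13), a very small subunit of the oligosaccharyltransferase, SEC61B (2.28 ± 0.13), a small translocon subunit, and SSR2 (1.54 ± 0.13), a translocon-associated protein, were all higher there, as was RPN2 (0.81 ± 0.13, but -0.34 after scaling), another oligosaccharyltransferase subunit. For ER-associated degradation, 20 of 23 tested mRNAs were higher (background 90.1%), 0 lower (background 1.26%) and 3 not called, with a median of 1.0. VCP, the ATPase that extracts proteins from the ER, had 1.004 ± 0.13 (-0.15 after scaling) and AUP1 had 1.11 ± 0.13 (-0.0041 after scaling), while OS9, a lectin of this pathway, had 0.21 ± 0.13 (limma adjusted p = 0.112) and -0.91 after scaling.

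All 19 tested mRNAs of the unfolded protein response itself were higher in the cytoplasm (background 90.1%), with a median of 0.91. ATF4, the transcription factor made when translation is dampened, had 68.9 ± 4.197 FPKM in cytoplasmic RNA and 25.0 ± 2.16 FPKM in nuclear RNA (1.43 ± 0.13). XBP1, whose spliced form is a main activator of ER chaperone genes, had 25.3 ± 1.48 FPKM in cytoplasmic RNA and 6.77 ± 0.489 FPKM in nuclear RNA (1.76 ± 0.13), and the gene table does not separate its spliced form. PPP1R15A, a phosphatase subunit that restores translation, had 1.24 ± 0.13 and CREB3 1.62 ± 0.13. After scaling the higher and lower counts were 14 and 18 for the folding factors, 18 and 6 for translocation and glycosylation, 9 and 7 for degradation and 6 and 6 for the response. The background after scaling was 40.0% higher and 33.4% lower.

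Chaperones of the cytosol or mitochondria gave another list. All 24 tested mRNAs were called higher in the cytoplasm (background 90.1%), with a median of 1.40. After scaling 15 were called higher (background 40.0%), 5 lower (background 33.4%) and 4 neither way. HSP90AB1 and HSP90AA1, the cytosolic Hsp90 genes, had 1.19 ± 0.13 and 1.08 ± 0.13 (0.0076 and -0.075 after scaling), beside -0.44 ± 0.13 for HSP90B1. HSPA8, the constitutive cytosolic Hsp70 gene, had 238 ± 16.6 FPKM in cytoplasmic RNA and 159 ± 19.5 FPKM in nuclear RNA (0.58 ± 0.14, but -0.61 after scaling), beside 0.09 ± 0.13 for HSPA5. CCT7, a chaperonin subunit gene, had 1.91 ± 0.13. Differences between genes or lists were not tested.

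**Figure D5:**
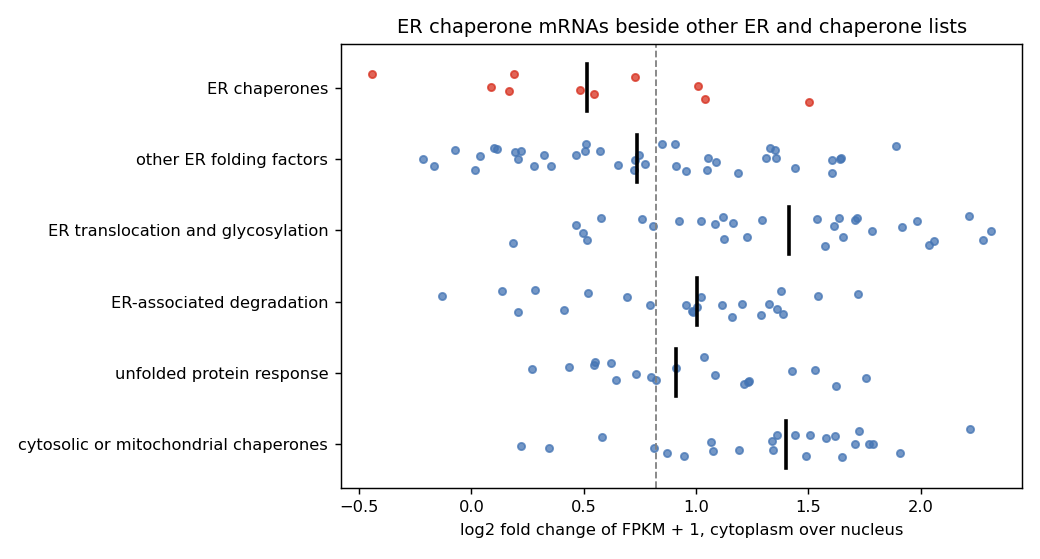
Log2 fold change of FPKM + 1, cytoplasm over nucleus, for each tested mRNA of 6 lists. Points are genes, black bars list medians and the dashed line the median of all tested mRNAs at 0.82; the ER chaperones have a median of 0.51 and the cytosolic or mitochondrial chaperones one of 1.40.

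The 10 members did not share one profile over the 6 libraries. Profiles were centred log2(FPKM + 1) values, and the distance to the members' median profile was Euclidean. It ran from 0.156 for PDIA3 to 1.67 for HSP90B1, with SDF2L1 next at 1.35. Among the other tested mRNAs the nearest to that median profile were STT3A (0.0786), SGPP1 (0.0863), B3GLCT (0.0934), BCAR3 (0.0953) and MGAT2 (0.120). STT3A, a catalytic subunit of the oligosaccharyltransferase, averaged 9.54 FPKM in cytoplasmic RNA, 6.09 FPKM in nuclear RNA and 8.87 FPKM in total RNA.

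Neighbouring genes limit single values. The counting's use of strand is not given in the sources used here. AC145207.3, annotated antisense to P4HB with 10% of the P4HB exon bases in common, was listed at 34.0, 17.0 and 22.1 FPKM in cytoplasm, nucleus and total RNA, close to the means of 34.7, 16.8 and 23.7 FPKM of P4HB. AC092069.1, antisense to CALR over 9.9% of its exon bases, had 119, 52.0 and 58.9 FPKM. AP003392.3, antisense to HYOU1 over 8.7% of its exon bases, had 10.5, 9.55 and 10.9 FPKM. PDIA3 shares 14.8% of its exon bases with ELL3 on the opposite strand, which had 0.257, 0.164 and 0.343 FPKM. PDIA6 shares 25.2% of its exon bases with ATP6V1C2 on the opposite strand, which had 6.72, 3.90 and 5.15 FPKM in the same order. Reads of such pairs cannot be told apart without strand, so these 5 members are uncertain to that extent. HSP90B1 and CANX have smaller overlaps. HSP90B1 shares 2.8% of its exon bases with MIR3652 on the same strand, listed at 39.3, 51.2 and 99.1 FPKM in cytoplasm, nucleus and total RNA. Those reads cannot be told apart even with strand. On the opposite strand HSP90B1 shares 2.6% of its exon bases with C12orf73, and CANX shares 2.4% with CBY3. The processed pseudogene PDIA3P1 stood at 23.4% of the PDIA3 level in the cytoplasm, 24.2% in the nucleus and 26.6% in total RNA. A second pseudogene, PDIA3P2, stood at 7.69%, 8.03% and 5.77% in the same order. Reads common to PDIA3 and either pseudogene cannot be told apart.

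Circular RNAs, rings joined at a back-spliced junction, gave another readout of these genes. The unit of the circRNA table, FPB, is not defined in the sources used here, and the reads given are its values divided by the smallest step of each library. The deposited circRNA table held 34 rings of 8 members and none of HSPA5 or SDF2L1, where 0 of 186411 back-splice reads allow a share of up to 0.00161%. All 10 together had 159 reads. CANX led with 15 rings and 74 reads, then PDIA3 with 8 rings and 41 reads and PDIA4 with 1 ring and 17 reads. P4HB had 13 reads, PDIA6 9, CALR and HSP90B1 2 each and HYOU1 1. Among 7292 host genes CANX ranked 564 and PDIA3 983, the median host having 6 reads.

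The ring with the most reads, chr5:179709873-179720560 of CANX (hg38), had 4 and 4 reads in the cytoplasmic, 2 and 2 in the nuclear and 3 and 3 in the total-cell libraries. By library, CANX rings had 21 and 21 reads in the cytoplasm, 3 and 6 in the nucleus and 9 and 14 in total RNA. Rings of the 10 genes made up 0.0814% of back-splice reads in the cytoplasm (80 of 98246, 95% exact interval 0.0646% to 0.101%), 0.122% in the nucleus (35 of 28733, 0.0849% to 0.169%) and 0.0740% in total RNA (44 of 59432, 0.0538% to 0.0994%). The intervals overlap and cover counting error only. No ring reached the mean of 0.369 FPB set for a test, so differences between compartments were not tested.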

How the data were processed

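Libraries of cytoplasmic, nuclear and total-cell RNA were made after ribosomal RNA depletion with a stranded kit, according to the labels. Tools listed in the submitters' processing notes are HISAT2 2.1.0, featureCounts 2.0.1, Trimmomatic 0.39, Bowtie and SAMtools 1.9, with hg38 and GRCh38 as builds; no roles are given. The gene table holds FPKM, per the file headers, as made by the authors. The deposited circRNA table holds a signal headed FPB; all values were whole multiples of the smallest of their library (100.0% within 0.05), and these multiples were taken as reads, though FPB is not defined in the sources used here. A mean of 0.369 FPB was set as the minimum for a circRNA test.

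Of 59609 rows, 19777 were taken as protein-coding by RefSeq or, failing that, GENCODE v29 type, and 10246 with a mean of at least 1 FPKM were tested. Log2(FPKM + 1) was fitted by limma 3.58.1 under R 4.3.3, using the intensity trend, in one model of 3 fractions over 6 libraries (3 residual degrees of freedom), with Benjamini-Hochberg adjustment over all tested mRNAs at 0.05. Fold changes on this scale understate those of low genes. The fit was also run on simulated data that held no shift shared by most mRNAs, so that run does not cover the shift seen here. Exon lengths are unions of GENCODE v29 exons, available for 97.8% of tested mRNAs. Alternatives were the pseudocount, the filter, scaling to one median, no trend, own spread, 4 libraries, all rows, a replicate block and each library left out. The members, the lists and the tests were chosen with earlier results of these data known. Named genes are the 10 members, the 4 best-expressed of each other list and any called lower there, and the 5 nearest profiles. A gene that this rule names and some coding ends are not reported here. The lncRNA table was not used here.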

Additional observations from a re-analysis of the deposited data

How the results depend on the processing

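Scaling the libraries to one median changed most directions, since it put the median of all tested mRNAs at 0.031 in place of 0.82 between cytoplasm and nucleus, at 0.0995 in place of -0.13 between cytoplasm and total RNA and at 0.014 in place of -1.05 between nucleus and total RNA. Between cytoplasm and nucleus it gave 1 member higher and 9 lower, a members' median of -0.63, and reversed values for HSPA5 (-1.09), CALR (-0.14), CANX (-0.98), PDIA3 (-0.59), PDIA4 (-0.67), PDIA6 (-0.41), HYOU1 (-0.97) and P4HB (-0.14). Between cytoplasm and total RNA it gave a median of 0.46 and reversed PDIA3 (0.28) and HYOU1 (0.045), neither called as deposited. Between nucleus and total RNA it gave 10 higher and 0 lower, a median of 1.04 and reversed HSPA5 (1.06), HSP90B1 (0.40), CALR (1.23), CANX (0.65), PDIA3 (0.87), PDIA4 (1.37), PDIA6 (1.06), HYOU1 (1.02), P4HB (0.95) and SDF2L1 (1.07). Higher and lower counts of the other lists became 14 and 18 for ER folding factors, 18 and 6 for translocation and glycosylation, 9 and 7 for degradation, 6 and 6 for the unfolded protein response and 15 and 5 for cytosolic or mitochondrial chaperones. By construction scaling removes the shift of the median. It also moved CALR and P4HB between cytoplasm and nucleus, and HSP90B1 between nucleus and total RNA, across the median of all tested mRNAs.

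With own spread 0 members were lower between cytoplasm and nucleus, and 3 were higher and 1 lower between cytoplasm and total RNA. Leaving out 1 library, the lone library being assumed to vary like the other groups, moved the lower count between cytoplasm and nucleus over 0 to 1 and the median over 0.375 to 0.652, the higher count between cytoplasm and total RNA over 3 to 5 and the median over 0.034 to 0.307, and the median between nucleus and total RNA over -0.533 to -0.301. Uncalled members that changed sign were HSPA5 between cytoplasm and nucleus (-0.057 to 0.23), PDIA3 between cytoplasm and total RNA (-0.14 to 0.13, with 0.045 without cytoplasm replicate 2) and PDIA4 between nucleus and total RNA (-0.19 to 0.076, and 0.0012 without total-cell replicate 2). The cause of these changes was not tested. With a replicate block the members' counts stayed at 6 higher and 1 lower between cytoplasm and nucleus. The labels give only shared numbers, and deviations of same-numbered libraries correlated at 0.0118, 0.150 and 0.461, so no pairing was assumed. The filter on circRNAs left 0 rings of the members, so that alternative gave no value. SDF2L1, with 140 to 579 fragments a library, has the least depth.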
